A study of Drosophila melanogaster with 21 samples.

Results

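Ribosomal protein genes supply the protein part of the ribosome that translates messenger RNA in the cytoplasm. The set described here was formed from every protein-coding gene in the count table whose FlyBase symbol starts with RpL or RpS, which includes the stalk genes RpLP0, RpLP1 and RpLP2, together with sta. It held 88 of the 17558 genes counted, with 37 genes of the small 40S subunit and 51 of the large 60S subunit. Of these, 14 lie on the X and 74 on autosomes, with 18 on 2L, 19 on 2R, 13 on 3L, 23 on 3R and 1, RpS3A, on chromosome 4. The X-linked genes of the 40S subunit were RpS5a, RpS6, RpS14a, RpS14b, RpS15Aa, RpS19a, RpS28b and sta, and those of the 60S subunit were RpL7A, RpL17, RpL22, RpL35, RpL36 and RpL37-1. RpL19, RpL27A, RpL31, RpS10b and RpS12 were not matched by identifier and were not analysed here. A mean of at least 100 CPM (counts scaled to library size, written here as CPM) was reached by 79 genes, all 14 X-linked ones among them, and the other 9 were weakly expressed paralogs.

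Each subunit is built from ribosomal RNA and a fixed set of proteins, most of them present in a single copy per ribosome, so cells need these proteins in matched amounts. In flies, loss of a functional copy of many of these genes gives the Minute phenotype of slow development and thin bristles. Males have a single X, and the MSL complex, made of proteins and the roX RNAs, raises its transcription, so that X-linked ribosomal protein genes can keep pace with their autosomal partners. The comparisons below show how the X-linked and autosomal members stood to each other when parts of that complex were mutated.

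Poly-A RNA was profiled in wing imaginal discs, the larval tissue that forms the adult wing, from third-instar males reared at 25 °C. The mutants, all labelled as null, were mle.9 (3 libraries), msl-2.227 (4 libraries), msl-1.L60 (3 libraries) and roX1.SMC17A combined with roX2delta (3 libraries), called roX mutants here. The helicase MLE and the proteins MSL1 and MSL2 belong to the complex, and roX1 and roX2 are its RNAs. Controls were males that carried mle (2 libraries), msl-2 (3 libraries) or msl-1 (3 libraries) over CyO-GFP, a rearranged chromosome 2, and 37 of the ribosomal protein genes lie on that chromosome. No control is labelled for the roX mutants, so they were set against the mean of the 3 heterozygous group means, and this comparison shares its controls with the other 3. The labels do not say that libraries came from separate cultures or animals, so p values measure only the spread between these libraries.

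Total counts per library lay between 830905 and 4131600, and ribosomal protein genes held 6.55% to 11.4% of them in 20 of the 21 libraries. In the other, msl-1 heterozygous replicate 2, which also had the lowest total, they held 2.04%. Calls were therefore made over all 21 libraries and again over the 20 without that library, and the common biological coefficient of variation was 0.362 in the first and 0.210 in the second. In roX mutants roX2 was at 0 and roX1 at 37.3 to 70.1 CPM, and over all mutants roX2 lay at 0 to 3.66 CPM, against 13.8 to 376 in heterozygous libraries. The roX1 level differed between the other mutants. It was 1573 to 1921 CPM in msl-2 mutants, against 2606 to 2756 in their controls. In mle mutants it was 61.6 to 129 (controls 3667 to 3724) and in msl-1 mutants 111.5 to 140 (controls 522 to 3408). The msl-2 transcript was at 50.9 to 60.1 CPM in msl-2 mutants and 93.9 to 111 in their controls. The transcripts of msl-1 (114 to 153 CPM against 37.7 to 114) and mle (216 to 241 against 146 in both controls) were no lower in their own mutants, so they do not check those labels.

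Wing disc markers (10 of 12 listed genes were in the table) had lower sums in mle and msl-2 mutants than in their controls. They summed to 4156 to 4935 CPM in mle heterozygous and 2481 to 3263 in mle mutant libraries, and to 3860 to 4296 against 2975 to 3465 for msl-2. For msl-1 they summed to 1536 to 4439 against 2347 to 2544, and in roX mutants to 2749 to 3437. In 20 libraries 5 of the 10 were called lower in mle, 2 in msl-2, 6 in msl-1 and 1 in roX mutants, where 8.95%, 7.59%, 12.7% and 7.55% of all genes were called lower. In 21 libraries 3 were called lower and 1 higher in msl-1 mutants and none in the others (1.98% of all genes called lower in mle, 0.648% in msl-2, 25.4% in msl-1 and 1.93% in roX mutants). No listed marker of another tissue was at 0 in all libraries. Larval muscle markers (7 of 8 listed) summed to 154 to 203 CPM in msl-2 heterozygous and 531 to 1236 in msl-2 mutant libraries, and the 7 fat body markers to 66.1 to 104 and 53.5 to 4840. In msl-1 mutants some markers of other tissues were called lower. Neuron and glia markers summed to 128 to 470 CPM in the heterozygous and 62.7 to 82.2 in the mutant libraries (4 of 5 called lower in 21 and 3 in 20 libraries). Germline markers summed to 296 to 324 against 181 to 188 (4 of 7 and 2 of 6 called lower), and tracheal markers to 326 to 1045 against 285 to 380 (3 of 3 and 1 of 3). The part of all these markers in the values below was not tested. In whole discs, fewer cells of a type and less RNA per cell cannot be told apart.

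Levels were compared between genes per length, as CPM per kb of exon, over the 7 heterozygous libraries other than msl-1 replicate 2. RpLP2, a protein of the stalk that recruits translation factors, had the highest level at 4103 ± 206 CPM per kb (SD, n = 7). The 14 X-linked genes lay between 223 ± 53.2 (RpS14b) and 1428 ± 202 (RpL7A, both SD, n = 7), with a median of 972 CPM per kb. The 65 autosomal genes above 100 CPM spanned 116 to 4103 CPM per kb with a median of 1366, so the X-linked genes took ranks 30 to 78 of the 79. RpS14a (X, 7933742 to 7934677) and RpS14b (X, 7934898 to 7935792) are neighbouring copies that encode the same protein, and their levels of 679 and 223 CPM per kb are uncertain because reads could be assigned to either.

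The X-linked share of all ribosomal protein counts was lower in every mutant group than in its control group. It was 14.4%, 14.6% and 15.1% in msl-2 heterozygous libraries and 12.4%, 12.0%, 12.6% and 11.7% in msl-2 mutants. For mle the values were 15.5% and 15.9% against 11.5%, 10.95% and 11.8%. In both stocks the groups did not overlap, and the gap between the msl-2 group means, 14.7% ± 0.350 (SD, n = 3) and 12.2% ± 0.385 (SD, n = 4), was wider than the spread of either group.

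For msl-1 the share was 13.1%, 17.0% (replicate 2) and 13.9% in heterozygous libraries and 11.3%, 10.7% and 11.1% in mutants, again with no overlap, with or without replicate 2. The roX mutants had 11.5%, 12.1% and 13.2%, and the highest of these lay just above the lowest msl-1 heterozygous library. The widest 95% Wilson interval of a share was 1.13 percentage points, in msl-1 heterozygous replicate 2, and it covers counting error only. The ribosomal protein share of all counts showed no such separation: it was 8.42% ± 0.255 (SD, n = 3) in msl-2 heterozygous and 8.35% ± 1.35 (SD, n = 4) in msl-2 mutant libraries.

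**Figure D1:**
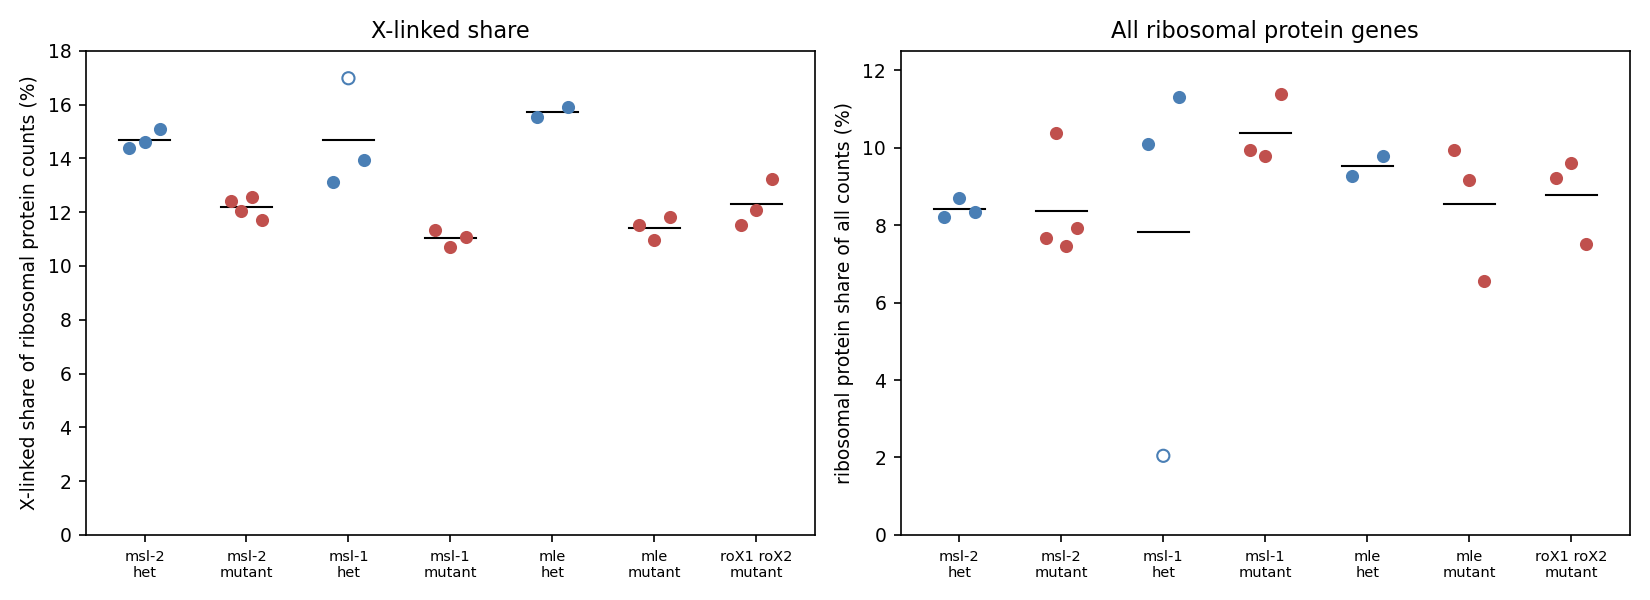
Each point is a library, in blue for heterozygous (het) and red for mutant groups, the line is the group mean, and the open circle is msl-1 heterozygous replicate 2. The left panel plots the X-linked share of ribosomal protein counts (%), which lay at 10.7% to 13.2% in the mutants and at 13.1% to 17.0% in the heterozygous libraries. The right panel plots the share of all counts held by ribosomal protein genes (%). There mutant and heterozygous libraries lie at like heights, apart from the open circle at 2.04%, which lowers the msl-1 heterozygous mean line.

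Gene by gene, log2 fold changes of mutant over heterozygous were fitted with the libraries scaled on genes of chromosomes 2 and 3. Their median was lower over the 14 X-linked than over the 67 autosomal members tested (66 in 20 libraries) in each of the 4 comparisons. The difference of the medians was -0.55 in mle, -0.31 in msl-2, -0.33 in msl-1 and -0.28 in roX mutants in 21 libraries, and -0.56, -0.30, -0.30 and -0.26 in the same order in 20 libraries. These values put the median X-linked fold change against controls at 68.4%, 80.9%, 79.6% and 82.3% of the autosomal one (21 libraries). They are ratios of fold changes and not of levels. The X-linked median was also below the autosomal one within each subunit. In 20 libraries the median of the 8 X-linked small-subunit genes was -0.85 in mle, -0.49 in msl-2, -0.27 in msl-1 and -0.47 in roX mutants, beside -0.34, -0.15, -0.03 and -0.19 for 24 autosomal ones above 100 CPM. That of the 6 X-linked large-subunit genes was -0.77, -0.41, -0.20 and -0.42 in the same order, beside -0.21, -0.16, 0.11 and -0.15 for 41 autosomal ones. In 21 libraries the small-subunit medians were -0.89, -0.52, 0.27 and -0.34 on the X and -0.38, -0.19, 0.53 and -0.04 on autosomes. The large-subunit ones were -0.80, -0.45, 0.36 and -0.26 on the X and -0.25, -0.19, 0.68 and 0.01 on autosomes.

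The same difference over all other genes of the X and of chromosomes 2 and 3 was -0.58 in mle, -0.38 in msl-2, -0.16 in msl-1 and -0.26 in roX mutants in 21 libraries. In 20 libraries it was -0.59, -0.37, -0.39 and -0.35. The ribosomal protein value was thus closer to 0 in mle and msl-2, and in msl-1 and roX mutants it was so in 20 but not in 21 libraries. These gaps between gene sets were not tested. Among other genes at or above the 90th percentile of mean expression (116 on the X and 869 on chromosomes 2 and 3 in 21 libraries) the difference was -0.65, -0.36, -0.46 and -0.40. In 20 libraries it was -0.63, -0.36, -0.46 and -0.42, so in both sets it was further from 0 than that of the ribosomal protein genes in all 4 comparisons.

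**Figure D2:**
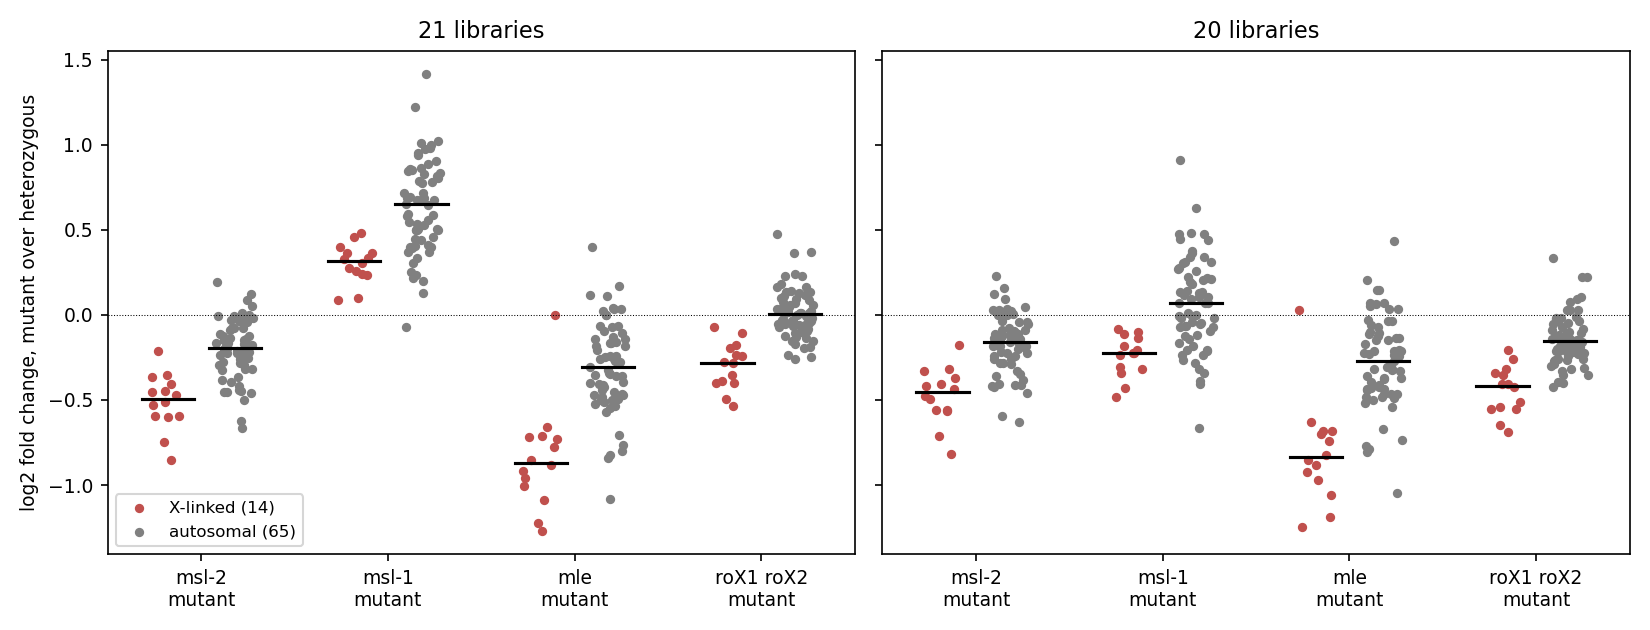
Each point is a ribosomal protein gene with at least 100 CPM, plotted by its log2 fold change of mutant over heterozygous, in red for the 14 X-linked and grey for the 65 autosomal genes, with the line at the median. The left panel has 21 libraries and the right panel 20, and in every comparison the X-linked median lies below the autosomal one. The msl-1 points as a whole move down when the library is left out (autosomal median over all tested members 0.65 and 0.07).

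Per library, the median centred log2 level of the X-linked members minus that of the autosomal members ran from 0.06 to 0.39 in the 7 heterozygous libraries and from -0.25 to 0.02 in the 13 mutant libraries. All mutants lay below all controls. Other genes of the X and of chromosomes 2 and 3 gave 0.08 to 0.35 and -0.29 to 0.01 by the same measure. In msl-1 heterozygous replicate 2, left out of these ranges, the ribosomal protein value was 0.32 and that of the other genes -0.67 on the 21-library scale.

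**Figure D3:**
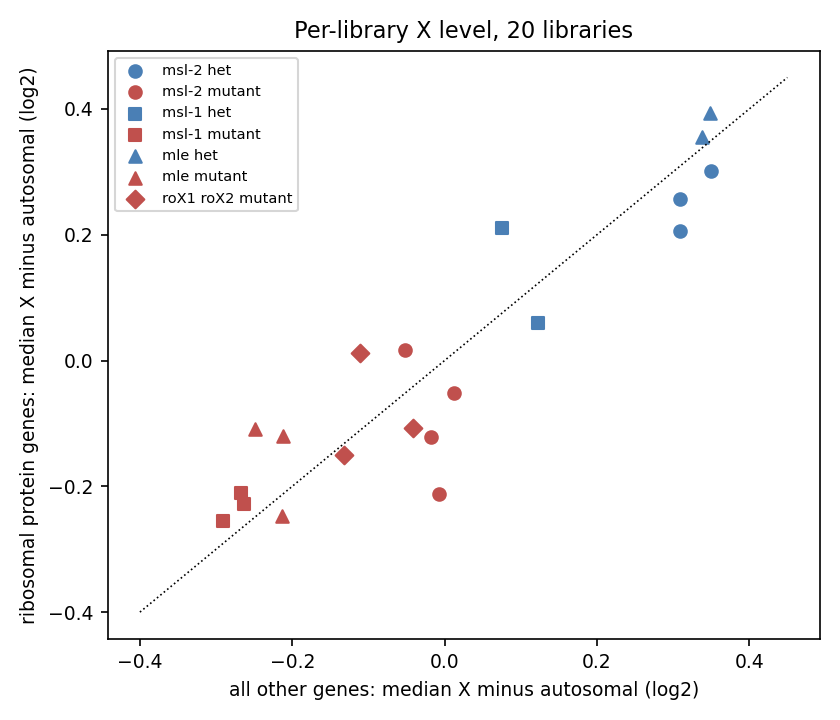
Each point is 1 of 20 libraries, plotted by its median X minus autosomal level (log2, centred per gene) over other genes on the horizontal axis and over ribosomal protein genes on the vertical axis, with the dotted line at equal values. Heterozygous libraries (blue) lie at 0.06 or more and mutant libraries (red) at 0.02 or less on the vertical axis.

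In mle mutants 13 of the 14 X-linked genes had log2 fold changes of -0.63 (sta) or lower in 20 libraries, down to -1.24 (RpS14b), and RpL22 stood apart. RpS28b (X, 9554623 to 9555661), a small-subunit protein, was at 941 and 1055 CPM in mle heterozygous libraries and at 513, 512 and 259 in the mutants. All mutant libraries lay below both controls, and the log2 fold change was -1.22 ± 0.56 (SE, adjusted p = 0.332) in 21 libraries and -1.19 ± 0.24 (adjusted p = 0.00157) in 20. RpL36 (X, 628338 to 629483), a large-subunit protein, was at 733 and 794 CPM in the controls and at 380, 441 and 255 in the mutants, with no overlap. Its log2 fold change was -1.09 ± 0.60 (adjusted p = 0.508) and, in 20 libraries, -1.06 ± 0.20 (adjusted p = 0.000955).

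RpS6 (X, 7899624 to 7901331), the target of S6 kinase in growth signalling, was at 1763 and 1678 CPM in mle controls and at 1082, 928 and 845 in mle mutants. The groups were apart, at log2 -0.85 ± 0.44 (adjusted p = 0.433) and, in 20 libraries, -0.82 ± 0.16 (adjusted p = 0.00120). RpL22 (X, 762560 to 765130) was at 985 and 970 CPM in the controls and at 1124, 1014 and 788 in the mutants, so that the mutants lay on both sides of the controls. Its log2 fold change was -0.003 ± 0.47 (adjusted p = 0.999) in 21 libraries and 0.03 ± 0.19 (adjusted p = 0.958) in 20.

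In 21 libraries edgeR called none of the X-linked genes lower in mle mutants, that is at an adjusted p under 0.05, where 6.47% of all X genes were called lower. Unadjusted p was under 0.05 for 2 of them, DESeq2 called 1, and edgeR on the mle libraries alone called 8. In 20 libraries 12 of the 14 fell, all but RpL17 and RpL22, where 35.9% of X genes were called lower, and DESeq2 also called 12. The count of 12 became 4 without mle heterozygous replicate 1, and lay between 8 and 13 with any other library left out. All mutant libraries lay below all controls for 13 of the 14 genes in both sets, against 59.4% of X genes in 21 libraries and 60.3% in 20.

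In msl-2 mutants all 14 X-linked genes had a negative log2 fold change, from -0.86 for RpL36 to -0.21 for RpL22 in 21 libraries. RpL36 was at 663, 761 and 711 CPM in the controls and at 393, 479, 346 and 355 in the mutants, well apart, with a log2 fold change of -0.82 ± 0.17 (adjusted p = 0.00391) in 20 libraries. RpS28b was at 728, 827 and 792 CPM against 463, 624, 359 and 421, without overlap, at -0.71 ± 0.20 (adjusted p = 0.0282). RpS6 was at 1468, 1525 and 1565 CPM against 1125, 1241, 921 and 973, also without overlap, at -0.48 ± 0.14 (adjusted p = 0.0282). In 21 libraries the adjusted p values of RpL36, RpS28b and RpS6 were 0.475, 0.499 and 0.537.

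These 3 genes were the X-linked members called lower in 20 libraries, close to the share of all X genes called lower, 24.7%, and 11 of the 14 had an unadjusted p under 0.05. In 21 libraries none was called by edgeR or DESeq2 and none had an unadjusted p under 0.05, where edgeR called 1.14% of X genes lower, and edgeR on the msl-2 libraries alone called 4. The count of 3 became 6 when genes with at least 1 CPM in 3 libraries were tested. It rose to 9 without msl-2 mutant replicate 2, the mutant library with the highest ribosomal protein share (10.4% against 7.47% to 7.93%). It was 7 without mle mutant replicate 3, 5 without mle mutant replicate 2, roX mutant replicate 4 or msl-1 heterozygous replicate 3, and 1 without msl-2 heterozygous replicate 2 or msl-2 mutant replicate 3 or 4. All mutant libraries lay below all controls for 8 of the 14 genes in 21 libraries, against 40.9% of X genes, and for 6 in 20 libraries, against 41.6%.

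In msl-1 mutants no X-linked ribosomal protein gene was called in either set, while a fit of the msl-1 libraries alone, without heterozygous replicate 2, called 5 lower. The 21-library log2 fold changes were all positive, from 0.09 (RpS28b) to 0.48 (RpS5a), and the 20-library ones all negative, from -0.48 (RpS28b) to -0.08 (RpS5a), so the direction itself rested on msl-1 heterozygous replicate 2. RpS28b was at 813, 85.4 (replicate 2) and 977 CPM in the controls and at 625, 642 and 729 in the mutants. Without replicate 2 the mutants lay below both controls, at -0.48 ± 0.24 (adjusted p = 0.156), and with it the groups overlapped. The gene sta (X, 1481797 to 1483413), which encodes the small-subunit protein RpSA, was at 1687, 275 (replicate 2) and 1913 CPM against 1347, 1226 and 1576. It too was below both controls without replicate 2 only, at -0.43 ± 0.21 (adjusted p = 0.134) in 20 libraries.

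Of the X-linked genes in msl-1 mutants, none had an unadjusted p under 0.05 in 21 libraries and 1 had in 20, and DESeq2 called none in either set, while edgeR called 22.9% and 25.3% of X genes lower. Mutant libraries lay below both remaining controls for 8 of the 14 in 20 libraries, against 47.1% of X genes, and for none in 21, against 20.7%. The highly expressed autosomal genes shifted with that library too, from a median log2 fold change of 0.63 in 21 libraries to 0.18 in 20.

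In roX mutants the 14 X-linked genes had log2 fold changes from -0.54 to -0.07 in 21 libraries and from -0.69 to -0.20 in 20 libraries. RpS19a (X, 16637894 to 16639249), a small-subunit protein, was at 652, 642 and 465 CPM in the mutants, against 924, 939 and 924 in msl-2, 1080 and 946 in mle, and 992, 95.4 (replicate 2) and 878 in msl-1 heterozygous libraries. The mutants lay below every control but that replicate, at log2 -0.54 ± 0.42 (adjusted p = 0.602) and, in 20 libraries, -0.69 ± 0.18 (adjusted p = 0.00930). RpS15Aa, RpS19a, RpS5a, RpS6 and RpL37-1 fell in 20 libraries, 5 of 14, where 25.8% of X genes were called lower and 11 had an unadjusted p under 0.05.

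In 21 libraries none of the X-linked genes was called in roX mutants by edgeR or DESeq2 and none had an unadjusted p under 0.05, against 4.37% of X genes called lower by edgeR. The count of 5 became 8 with DESeq2 or with only the groups compared, and 2 when genes with at least 1 CPM in 3 libraries were tested. It became 2 without mle heterozygous replicate 1 or 2 or roX mutant replicate 3 or 4, 8 without msl-2 mutant replicate 2 and 9 without mle mutant replicate 3. Mutant libraries lay below all controls for 9 of the 14 genes in 20 libraries, against 16.3% of X genes, and for none in 21, against 2.7%.

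The X-linked genes were also read against the autosomal members directly, with the libraries scaled on the autosomal ribosomal protein genes, a scaling added after the data had been seen. The scaling moved the median log2 fold change of all genes by 0.31 in mle, 0.22 in msl-2, -1.95 in msl-1 and -0.40 in roX mutants in 21 libraries, and by 0.35, 0.17, -0.10 and 0.16 in 20, so its values are relative to the autosomal members only. All 14 X-linked genes then had negative log2 fold changes in msl-2, msl-1 and roX mutants, in both sets of libraries, and 13 had in mle mutants, RpL22 being the other. For RpL22 all mle mutant libraries lay above both controls on this scale, in both sets, without a call. The median over the 14 genes was -0.60 in mle, -0.30 in msl-2, -0.45 in msl-1 and -0.37 in roX mutants in 21 libraries, and -0.52, -0.31, -0.33 and -0.27 in 20. In msl-1 mutants in 21 libraries the median was 0.32 without this scaling.

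On that scale edgeR called 1 X-linked gene (RpS28b) lower in mle, 0 in msl-2, 8 in msl-1 and 0 in roX mutants in 21 libraries, where 0.3%, 0.18%, 71.3% and 0.659% of X genes were called. The count of 8 became 0 without msl-1 heterozygous replicate 2, 1 without msl-1 mutant replicate 3, and 3 without either mle heterozygous library or msl-1 mutant replicate 1 or 2. The count of 1 in mle stayed at 1 without msl-2 mutant replicate 1 or 2, roX mutant replicate 4 or msl-1 heterozygous replicate 3, became 5 without msl-1 heterozygous replicate 2 and was 0 without any other library. With 0 calls, 5 genes in msl-2 and 5 in roX mutants had an unadjusted p under 0.05, and DESeq2 called 2 and 3. In 20 libraries edgeR called RpL35, RpL36, RpS14b, RpS19a and RpS28b in mle, RpL36 in msl-2, none in msl-1 (4 had an unadjusted p under 0.05) and RpS19a in roX mutants, where 3.33%, 1.73%, 16% and 5.06% of X genes were called. DESeq2 was not run on that scale in 20 libraries. Among autosomal members edgeR called 7 lower and 2 higher in msl-1 mutants in 21 libraries, where 67.1% and 0.718% of all genes were. With 20 libraries it called 1 lower in mle (1.15%) and 1 lower and 1 higher in msl-1 mutants (8.09% and 3.9%). No other autosomal member was called on that scale in the 4 comparisons. In 20 libraries RpL36 stood at -0.79 ± 0.20 (adjusted p = 0.0154) in mle and -0.66 ± 0.17 (adjusted p = 0.0272) in msl-2 mutants. RpS28b was at -0.95 ± 0.20 (adjusted p = 0.00328) in mle mutants, and RpS19a at -0.56 ± 0.15 (adjusted p = 0.0198) in roX mutants. Mutant libraries lay below all controls for 13 of the 14 genes in mle, 11 in msl-2, 12 in msl-1 and 6 in roX mutants in 20 libraries, against 22.1%, 20.2%, 51.3% and 5.64% of X genes.

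**Figure D4:**
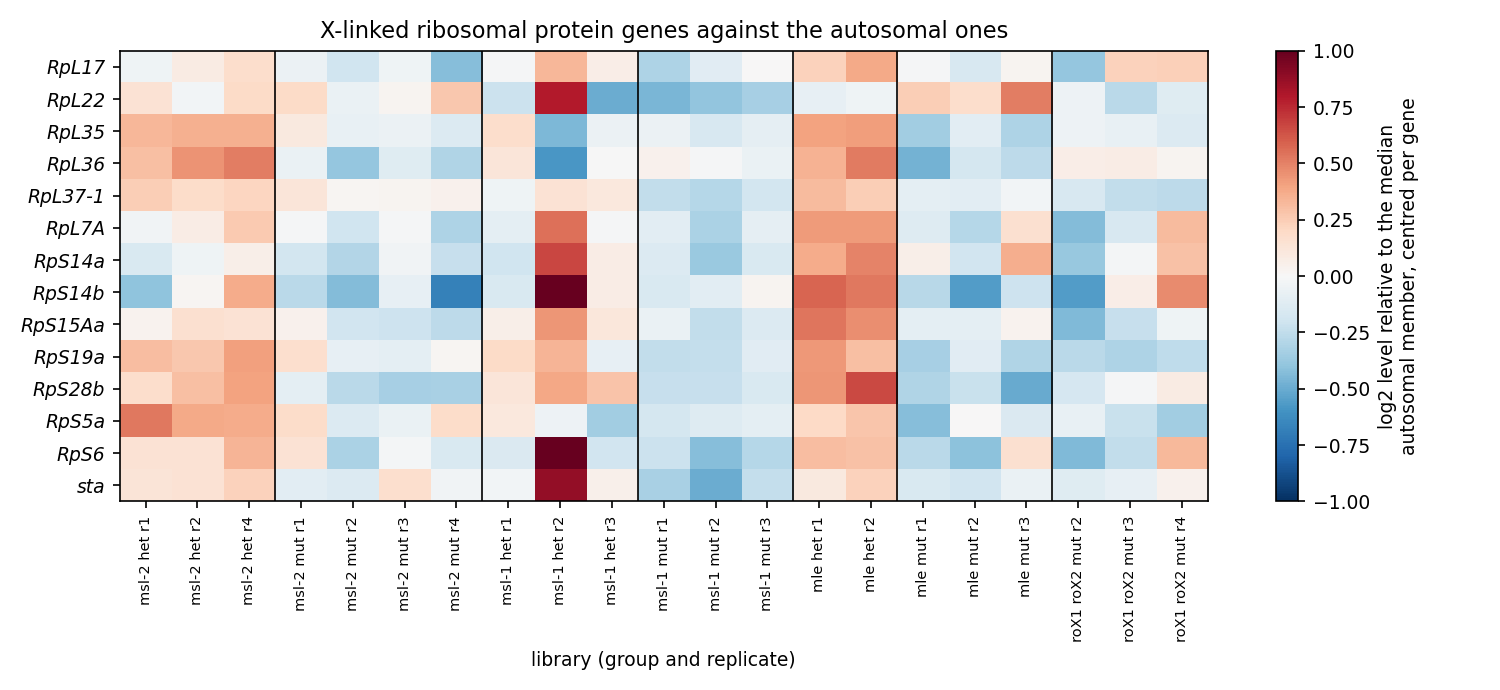
Each cell is the log2 level of an X-linked ribosomal protein gene (vertical axis) relative to the median autosomal ribosomal protein gene of the same library (horizontal axis), centred per gene over 21 libraries, with colours limited to -1 and 1. Most genes are red in the msl-2 and mle heterozygous libraries and blue in 11 of the 13 mutant libraries, with 7 of 14 above 0 in msl-2 mutant replicate 1 and 8 of 14 in roX mutant replicate 4. The RpL22 row is red in the mle mutants, and the darkest red cells are in msl-1 heterozygous replicate 2.

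The spread of log2 fold changes among the X-linked genes was wider than among the autosomal ones in mle mutants and not in the others. In 21 libraries the SD of log2 fold changes over the 14 genes was 0.31 in mle, 0.16 in msl-2, 0.12 in msl-1 and 0.14 in roX mutants, and over the autosomal genes above 100 CPM it was 0.27, 0.17, 0.27 and 0.15. In mle mutants the SD of 0.31 was below the SE of RpS6 (0.44), RpS28b (0.56) and RpL36 (0.60) in 21 libraries. In 20 libraries the SD was also 0.31, and the SEs of these genes lay below it. Whether the X-linked genes changed unequally was not tested. The order of the genes was alike in msl-2 and mle mutants, which share no control library (Spearman rho 0.79 over the 14 genes and 0.61 over 65 autosomal genes, 21 libraries). For msl-2 and msl-1 mutants rho was -0.16 over the X-linked and 0.30 over the autosomal genes (-0.14 and 0.33 in 20 libraries). For msl-1 and mle mutants it was 0.03 and 0.65 (-0.02 and 0.68 in 20 libraries). These are correlations across genes of libraries that differ in depth, and genes are not independent replicates.

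Several members have a second copy elsewhere in the genome. RpS15Ab (2R) is the autosomal copy of X-linked RpS15Aa, and it was called lower in mle, msl-1 and roX mutants in 20 libraries and in no comparison in 21. In mle it was at 170 and 188 CPM in the controls and at 95.6, 123 and 96.2 in the mutants, with no overlap. The log2 fold change was -0.74 ± 0.17 (adjusted p = 0.00531) in 20 libraries and -0.77 ± 0.57 (adjusted p = 0.725) in 21. In msl-1 it was at 189, 8.16 (replicate 2) and 168 CPM against 101, 126 and 121, at -0.66 ± 0.18 (adjusted p = 0.00870) in 20 libraries and -0.07 ± 0.52 (adjusted p = 0.919) in 21. With 1 library left out of the 21, the msl-1 value turned to 0.39 without heterozygous replicate 1, 0.22 without heterozygous replicate 3 and 0.02 without mutant replicate 1. It also fell in roX mutants in 20 libraries (-0.42 ± 0.14, adjusted p = 0.0385), where the libraries overlapped, and was at -0.26 ± 0.43 (adjusted p = 0.832) in 21. In msl-2 mutants it was at -0.41 ± 0.14 (adjusted p = 0.0702) in 20 and -0.44 ± 0.48 (adjusted p = 0.671) in 21 libraries.

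RpS15Aa, the X-linked copy, was at 911 and 832 CPM in mle controls and at 536, 507 and 342 in mle mutants, without overlap. It stood at -0.88 ± 0.20 (adjusted p = 0.00408) in 20 libraries and -0.92 ± 0.52 (adjusted p = 0.530) in 21. Both copies fell in mle mutants, and since the copies are close in sequence, reads could have been assigned to either. The pair RpL34a (3R) and RpL34b (3R), both autosomal, overlapped between groups in mle. RpL34a was at 251 and 252 CPM in the controls and 201, 263 and 129 in the mutants, and RpL34b at 724 and 684 against 670, 744 and 373. RpS14a fell by 0.70 ± 0.19 (adjusted p = 0.0140) and RpS14b by 1.24 ± 0.24 (adjusted p = 0.000973) on the log2 scale in mle mutants in 20 libraries, with the same doubt on shared reads. In 21 libraries they were at -0.73 ± 0.48 (adjusted p = 0.641) and -1.27 ± 0.37 (adjusted p = 0.0654).

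The 9 weakly expressed paralogs, all autosomal, were RpL7-like, RpL10Aa, RpL22-like, RpL37-2, RpS5b, RpS10a, RpS19b, RpS28-like and RpS28a, and several are known from the germline. Their mean levels ran from 0.0929 CPM (RpL7-like, 4 counts in all libraries together) to 3.37 CPM (RpL22-like), so they added little to the ribosomal protein counts. RpL22-like (2R), the paralog of RpL22, was at 3.14, 10.7 (replicate 2) and 5.75 CPM in msl-1 heterozygous libraries and at 1.55, 0.475 and 2.35 in msl-1 mutants. Mutants lay below all controls, but the call in 21 libraries (-2.15 ± 0.69, adjusted p = 0.0216) was lost in 20 (-1.69, adjusted p = 0.0767), and no library had more than 17 counts of it.

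Few autosomal members were called. In mle mutants RpL30, RpL41 and RpS15Ab fell in 20 libraries, 3 of 66 tested, a share near the 4.04% of genes on chromosomes 2 and 3 called lower. None was called in 21 libraries (1.24% of such genes, and 1 member at an unadjusted p under 0.05). All mle mutant libraries lay below both controls for 32 of 67 members in 21 libraries and 28 of 66 in 20. Of such genes 16.1% and 15.4% did. They lay above both for 1 member in each set (14.5% and 16.9%). Members below all controls numbered 3 and 2 in msl-2 (12.9% and 12.8%) and 1 and 6 in msl-1 mutants (18.3% and 25.4%). In roX mutants there were 0 in either set (1.96% and 3.77%). In msl-2 mutants edgeR called none lower in either set (0.565% in 21 and 4.5% in 20 libraries of genes on chromosomes 2 and 3), and 5 had an unadjusted p under 0.05 in 20 libraries and 0 in 21. In roX mutants RpS15Ab was the member called lower in 20 libraries (4.15% of such genes) and none was in 21 (1.49%, 0 at an unadjusted p under 0.05). In msl-1 mutants 1 was called lower in each set, RpL22-like in 21 and RpS15Ab in 20 libraries, where 26.1% and 10.4% of genes on chromosomes 2 and 3 were. DESeq2 was not counted for this direction.

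The median log2 fold change of the autosomal members was -0.32 in mle, -0.19 in msl-2, 0.65 in msl-1 and -0.0002 in roX mutants in 21 libraries, beside -0.01, 0.05, -0.15 and -0.06 over other genes of chromosomes 2 and 3. In 20 libraries it was -0.28, -0.15, 0.07 and -0.15, beside 0.02, 0.05, -0.05 and 0.01. The autosomal members' medians were thus below those of other genes in mle and msl-2 mutants in both sets and above them in msl-1 mutants.

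RpL41 (2R), the shortest ribosomal protein, was at 1248 and 1107 CPM in mle controls and at 628, 709 and 335 in mle mutants, without overlap. It stood at -1.04 ± 0.26 (adjusted p = 0.00798) in 20 and -1.08 ± 0.58 (adjusted p = 0.481) in 21 libraries. RpL30 (2L), a large-subunit protein, was at 408 and 419 CPM against 271, 264 and 177, also without overlap, at -0.77 ± 0.22 (adjusted p = 0.0228) in 20 and -0.80 ± 0.45 (adjusted p = 0.524) in 21 libraries. RpS3A, the gene on chromosome 4, was at 3731 and 3428 CPM in mle controls and at 3033, 3861 and 2410 in mle mutants, overlapping, and passed in none of the 4 comparisons in either set.

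RpL30, RpL41 and RpS15Ab lie on chromosome 2, of which the controls carry 1 balancer copy. Over the 33 genes of chromosome 2 with at least 100 CPM the median log2 fold change in mle mutants was -0.38 in 20 libraries, and over the 31 of chromosome 3 it was -0.21, with 29 of 33 and 25 of 31 below 0. In msl-1 mutants the 20-library medians were -0.01 and 0.10. The part of the balancer in these values was not tested.

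Shorter autosomal members had lower log2 fold changes. Across the 65 genes, Spearman rho with exon length was 0.48 in mle, 0.29 in msl-2, 0.20 in msl-1 and 0.27 in roX mutants in 20 libraries, and 0.48, 0.29, 0.16 and 0.26 in 21, a description across genes that share libraries. In mle mutants the 17 genes of up to 659 bases had a median of -0.36 and the 17 of at least 1167 bases one of -0.13 (-0.40 and -0.17 in 21 libraries). X-linked members have exon lengths of 597 to 1386 bases. Read against a line through the autosomal members, their difference was -0.61 in mle, -0.33 in msl-2, -0.31 in msl-1 and -0.30 in roX mutants, against -0.57, -0.30, -0.30 and -0.27 without that line (20 libraries). In 21 libraries it was -0.61, -0.33, -0.33 and -0.31, against -0.56, -0.30, -0.33 and -0.29. The part of RNA quality in these values was not tested.

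Few autosomal members were called higher. In msl-1 mutants 1 of 67 was in 21 libraries and 2 of 66 in 20, below the 14.1% and 11.6% of genes on chromosomes 2 and 3 called higher. Yet all msl-1 mutant libraries lay above all controls for 23 of 67 members in 21 libraries and 19 of 66 in 20. Of genes on chromosomes 2 and 3, 20.7% and 25.5% did. In msl-2 mutants 0 members did so in either set (11.1% and 11.8%), and in roX mutants also 0 (3.28% and 5.43%). RpLP0-like (2R), whose yeast counterpart Mrt4 helps assemble the stalk and is not part of the mature ribosome, was at 125, 16.3 (replicate 2) and 79.5 CPM in msl-1 heterozygous libraries and at 198, 210 and 185 in msl-1 mutants. All mutants lay above all controls, and it rose by log2 1.42 ± 0.42 (adjusted p = 0.0151) in 21 and 0.91 ± 0.25 (adjusted p = 0.0113) in 20 libraries. RpL4 (3R), a large-subunit protein, was at 2075, 279 (replicate 2) and 1583 CPM against 2550, 2487 and 2840, above all controls, and was called in 20 libraries (0.48 ± 0.17, adjusted p = 0.0467) and not in 21 (1.00 ± 0.46, adjusted p = 0.0861). RpL24-like (3R), whose yeast counterpart Rlp24 is also an assembly factor, was at 270, 30.1 (replicate 2) and 205 CPM against 315, 340 and 343, also above all controls but called in neither set, at 0.98 ± 0.46 (adjusted p = 0.0891) in 21 and 0.44 ± 0.25 (adjusted p = 0.201) in 20 libraries.

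The count of autosomal members called higher in msl-1 mutants was 7 in 21 and 6 in 20 libraries with DESeq2. In the other comparisons edgeR called none higher. In mle (1.51% and 4.65% of such genes) and msl-2 mutants (0.607% and 3.38%) no member had an unadjusted p under 0.05 and DESeq2 called 0. In roX mutants (3.59% and 7.44%) 0 in 21 and 1 in 20 libraries had an unadjusted p under 0.05, and DESeq2 called 0 and 1. In 21 libraries the msl-1 count became 9 without msl-1 heterozygous replicate 1 and 0 without msl-1 mutant replicate 2. In 20 libraries it became 0 without msl-1 heterozygous replicate 3. It became 1 without msl-2 mutant replicate 1 or 4, either mle heterozygous library or any msl-1 mutant library. It became 3 without roX mutant replicate 4, and 4 without msl-2 mutant replicate 2, mle mutant replicate 3 or msl-1 heterozygous replicate 1.

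Differences between the stocks' responses were tested as contrasts of contrasts among msl-2, msl-1 and mle, which have separate controls. None of the ribosomal protein genes was called in any of the 3 contrasts by edgeR in 21 or 20 libraries. In 21 libraries 2 had an unadjusted p under 0.05 for msl-1 minus msl-2, 0 for mle minus msl-2 and 1 for msl-1 minus mle, where 26.3%, 0.0263% and 0.228% of all genes were called. In 20 libraries 4 had an unadjusted p under 0.05 for msl-1 minus msl-2, 1 for mle minus msl-2 and 7 for msl-1 minus mle, where 15.1%, 0.241% and 0.511% of all genes were called. DESeq2 was not run on these contrasts. With the libraries scaled on the autosomal members, 6 autosomal members (RpL3, RpL8, RpL18, RpL22-like, RpS19b and RpS26) were called lower for msl-1 minus msl-2 in 21 libraries, where 50.1% of all genes were, and none was called for that contrast in 20 or for the other contrasts in either set. Between the heterozygous groups no member was called in 21 libraries, where 42.4% of all genes were called for msl-1 minus msl-2, 0.289% for mle minus msl-2 and 0.0876% for msl-1 minus mle. Unadjusted p was under 0.05 for 1 member, in the last of these. In 20 libraries RpL8 (0.73 ± 0.20, adjusted p = 0.0301) and RpL27 (0.83 ± 0.25, adjusted p = 0.0421), both large-subunit proteins, were higher in msl-1 than in msl-2 heterozygous libraries, where 10.4% of all genes were called in either direction. No member was called for mle minus msl-2 (0.772% of all genes, and 14 members at an unadjusted p under 0.05) or msl-1 minus mle (0.203%, and 0 members).

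Many genes that build ribosomes rose in msl-1 mutants. Of 29 ribosome biogenesis genes tested, 27 rose in msl-1 mutants in 21 libraries and 23 in 20, where 12.8% and 10.4% of all genes were called higher. Their median log2 fold change was 1.26 and 0.83, and none was called lower in the 4 comparisons of mutant with heterozygous libraries. Between controls, 10 of the 29 were called lower in msl-1 than in msl-2 heterozygous libraries in 21 libraries and 2 in 20, where 15.9% and 6.34% of all genes were. The 29 genes summed to 1318 to 5388 CPM in msl-1 heterozygous libraries, against 5514 to 6514 in msl-2 and 4829 to 5162 in mle heterozygous libraries, and to 9095 to 9560 in msl-1 mutants. The rise itself was larger in msl-1 than in msl-2 mutants for 10 of the 29 in 21 and 9 in 20 libraries (7.51% and 7.22% of all genes called higher in that contrast), and for none by edgeR against mle mutants, where 0.228% and 0.511% of all genes were called in either direction. The factor eIF6, which keeps the 60S subunit from joining too early, rose in msl-1 mutants by log2 1.69 ± 0.27 (adjusted p = 0.00011) in 20 and 2.21 ± 0.44 (adjusted p = 0.00148) in 21 libraries. Tsr1, a factor of late 40S maturation, rose by 1.19 ± 0.20 (adjusted p = 0.000109) in 20 and 1.51 ± 0.28 (adjusted p = 0.000736) in 21 libraries. In 20 libraries 11 of the 29 rose in roX, 6 in mle and 1 (Non1, a nucleolar GTPase) in msl-2 mutants, where 6.81%, 4.06% and 3.07% of all genes were called higher. In 21 libraries edgeR called none of the 29 in these 3 comparisons (3.41%, 1.38% and 0.56% of all genes).

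Translation factors were mixed. Of 33 tested, 10 rose in msl-1 mutants in 21 libraries, where 12.8% of all genes were called higher. In 20 libraries 14 rose and 1 fell, where 10.4% of all genes were called higher and 12.7% lower. The factor eEF2, which moves the ribosome along the message, rose by log2 1.14 ± 0.19 (adjusted p = 0.00012) in msl-1 mutants in 20 libraries and by 1.68 ± 0.53 (adjusted p = 0.0199) in 21. The list was not split into X-linked and autosomal genes. Of X genes 35.9% in mle, 24.7% in msl-2, 25.3% in msl-1 and 25.8% in roX mutants were called lower in 20 libraries. The factor eIF5, which acts in start codon selection, was called lower in all 4 comparisons in 20 libraries and in none in 21. It stood at -0.95 ± 0.14 (adjusted p = 8.88e-05) in mle, -0.57 ± 0.12 (adjusted p = 0.00410) in msl-2, -0.41 ± 0.15 (adjusted p = 0.0450) in msl-1 and -0.62 ± 0.11 (adjusted p = 0.000529) in roX mutants in 20 libraries. In 21 libraries it stood at -0.98 (adjusted p = 0.156), -0.61 (adjusted p = 0.391), 0.05 (adjusted p = 0.916) and -0.50 (adjusted p = 0.400) in the same order, so in msl-1 mutants its direction turned too. In 20 libraries mle mutants had 1 factor higher, where 4.06% of all genes were called higher. Called lower were 4 in mle, 2 in msl-2 and 2 in roX mutants, beside 8.95%, 7.59% and 7.55% of all genes. In 21 libraries edgeR called none in these 3.

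**Figure D5:**
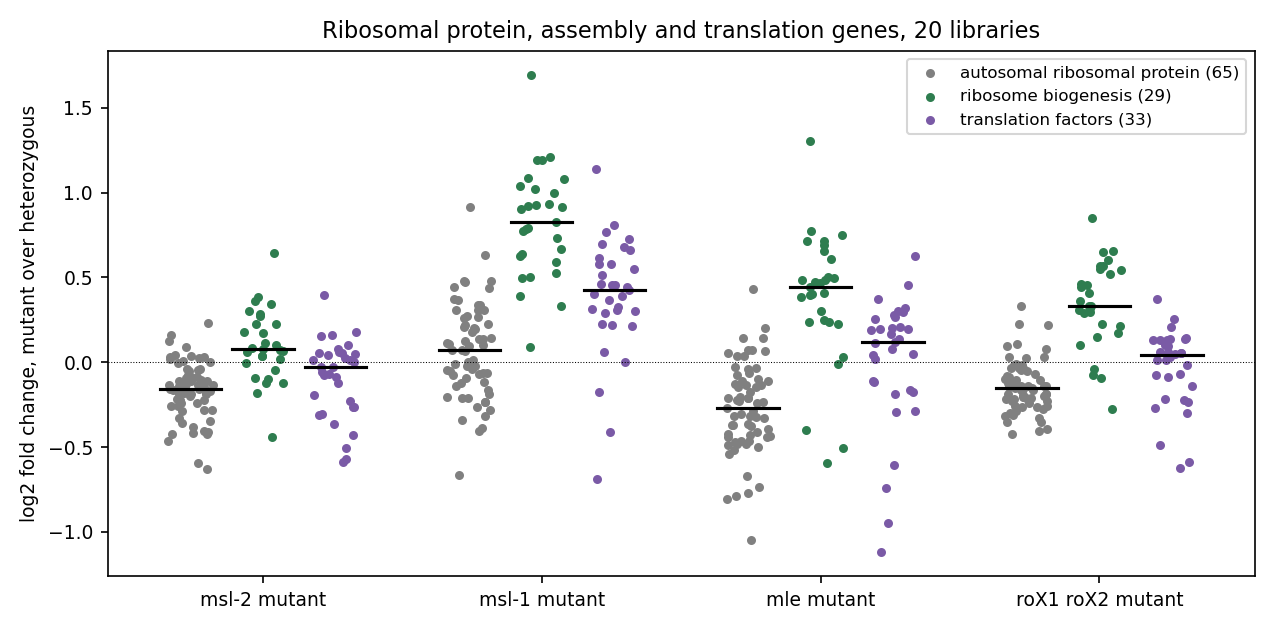
Each point is a gene, plotted by its log2 fold change of mutant over heterozygous in 20 libraries, with the line at the median, for 65 autosomal ribosomal protein genes (grey), 29 ribosome biogenesis genes (green) and 33 translation factors (purple). The green points lie highest in msl-1 mutants (median 0.83), where the grey ones centre near 0 (median over all tested autosomal members 0.07).

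Of 10 factors linked to ribosomal protein promoters, 2 fell in mle, 1 in msl-2, 1 in msl-1 and 2 in roX mutants in 20 libraries, and none rose. Of all genes 8.95%, 7.59%, 12.7% and 7.55% were called lower, and with 10 genes counts of 1 or 2 are close to such shares. Of X genes 35.9%, 24.7%, 25.3% and 25.8% were called lower, and this list was not split by chromosome. Trf2, which is known to serve the TCT promoters of these genes, fell in mle (-0.70 ± 0.18, adjusted p = 0.0101), msl-1 (-0.69 ± 0.18, adjusted p = 0.00766) and roX mutants (-0.47 ± 0.14, adjusted p = 0.0260). The related factor Trf fell in mle (-0.59 ± 0.19, adjusted p = 0.0350), msl-2 (-0.68 ± 0.15, adjusted p = 0.00617) and roX mutants (-0.72 ± 0.15, adjusted p = 0.00160). In 21 libraries the single call was Trf2 in msl-1 mutants (-0.62 ± 0.24, adjusted p = 0.0440), where 25.4% of all genes were called lower.

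Of 17 growth regulators, in 20 libraries 2 fell in mle, 2 rose in msl-2, 2 rose and 2 fell in msl-1 and 2 fell in roX mutants. Of all genes 3.07% were called higher in msl-2 and 10.4% in msl-1 mutants, with the shares called lower as given above. The growth regulators were not split by chromosome either, and the shares of X genes called lower are also given above. In 21 libraries 1 fell in mle (1.98% of all genes) and 2 rose and 2 fell in msl-1 mutants (12.8% and 25.4%). None was called in msl-2 or roX mutants. Mnt, an antagonist of Myc, fell in mle (-1.04 ± 0.24, adjusted p = 0.00517), msl-1 (-1.48 ± 0.26, adjusted p = 0.000211) and roX mutants (-0.89 ± 0.20, adjusted p = 0.00329) in 20 libraries. In 21 libraries it fell in msl-1 mutants (-1.18 ± 0.29, adjusted p = 0.00642) and did not pass in mle (-1.07, adjusted p = 0.0547) or roX mutants (-0.82, adjusted p = 0.0502).

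A list of 9 genes known to be induced in fly discs that lose a ribosomal protein gene copy had 9 members higher in mle, 7 in msl-2, 9 in msl-1 and 9 in roX mutants in 21 libraries and 9, 8, 9 and 9 in 20. Of all genes 1.38%, 0.56%, 12.8% and 3.41% were called higher in 21 and 4.06%, 3.07%, 10.4% and 6.81% in 20 libraries. Their medians were 1.95, 1.22, 2.55 and 1.84 in 21 and 1.99, 1.25, 2.44 and 1.86 in 20 libraries. Xrp1, a transcription factor needed for that response, rose by log2 1.88 ± 0.20 (adjusted p = 1.66e-06) in mle, 1.20 ± 0.16 (adjusted p = 0.00011) in msl-2, 1.52 ± 0.20 (adjusted p = 6.93e-06) in msl-1 and 1.51 ± 0.14 (adjusted p = 3.47e-08) in roX mutants in 20 libraries. In 21 libraries the value in msl-2 mutants, 1.16, did not pass (adjusted p = 0.0833). Several of these genes, such as Ku80, Irbp and mre11, act in DNA repair. Ku80 rose by log2 1.99 ± 0.22 (adjusted p = 1.87e-06) in mle, 1.22 ± 0.18 (adjusted p = 0.00021) in msl-2, 2.44 ± 0.22 (adjusted p = 6.74e-08) in msl-1 and 2.49 ± 0.14 (adjusted p = 2.25e-11) in roX mutants in 20 libraries, and it was called higher in all 4 in 21 libraries too, by 1.95, 1.19, 2.57 and 2.50. The list was chosen with earlier results of these data known, so its counts are not a test of a response to ribosomal protein loss. Whether the rise of its genes is tied to the X-linked ribosomal protein genes was not tested.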

How the data were processed

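The authors deposited raw, unnormalised read counts of FlyBase genes in a single table, with a column per library. Per the labels, libraries were made with a TruSeq Stranded kit. Per the submitters' processing notes, the tools included STAR 2.6.1b, Subread 1.6.1 with featureCounts, and DESeq2 1.18.1, and dm6 and BDGP6 are the builds listed. How strand was set in counting, and which annotation release was used, is not given in the sources used here, so overlapping genes and close paralogs are uncertain.

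Genes were matched to the dm6 annotation by identifier. The 306 unmatched genes held 5.53% of counts, and they entered the fit but no value by chromosome. edgeR 4.0.16 in R 4.3.3 fitted 7 group means by robust quasi-likelihood to the 11420 genes that passed filterByExpr (10367 in 20 libraries), with TMM scaling on genes of chromosomes 2 and 3. Benjamini-Hochberg adjustment covered all genes tested, and a gene was called at an adjusted p under 0.05. SE is an approximate standard error, the absolute log2 fold change divided by the square root of the F statistic of its edgeR test. CPM values use the 21-library scaling. DESeq2 1.42.0 was an alternative. The fit was also run on simulated counts in which no library stood apart, so that run does not cover data with such a library. Centred log2 levels used a prior count of 2.

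Members and lists were chosen with earlier results of these data known. The genes named were all X-linked members, paralogs, RpS3A, up to 5 autosomal members per direction and comparison called with non-overlapping libraries and at least 5 CPM, and up to 4 per list with the smallest adjusted p. RpLP2, RpL3, RpL8, RpL18, RpL27, RpL24-like and RpS26, and Xrp1 and Ku80 where they fell outside that limit, were named after their values were seen. The choice to make calls in 20 libraries as well, and the scaling on autosomal members, were made after the data were seen. Same-numbered replicates did not deviate together (r from -0.28 to 0.09), so numbers were not taken as pairs. Promoter and protein sequences were not analysed here.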

Additional observations from a re-analysis of the deposited data

Results flagged for a closer look

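In the group of 4 msl-2 mutant libraries, 10 values had 1 library far from the other 3. The test was made on 85 sets of values, and chance alone marks about 5.0% of such sets. In 9 of the 10 the library was replicate 2, and it was the highest. Its ribosomal protein genes held 10.4% of all counts, against 7.47% to 7.93% in the other 3. The genes were RpL12 at 808 CPM (461 to 520 in the others), RpL15 at 1408 (1037 to 1092), RpL18 at 1335 (876 to 924) and RpL4 at 2553 (1948 to 2051). RpL5 was at 2673 (1943 to 2034), RpS26 at 1659 (954 to 1014), RpS29 at 1310 (775 to 830) and X-linked RpS14a at 491 (349.8 to 360.04). The other value was RpS15Ab, at 139.5 CPM in replicate 3 and 175 to 176 in the others. These genes share libraries, so the 10 values are not independent.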

How the results depend on the processing

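The X minus autosomal difference of ribosomal protein medians kept its sign under every alternative run. When 1 library was left out, of 21 or of 20, it ran from -0.36 to -0.25 in msl-2, -0.37 to -0.24 in msl-1, -0.62 to -0.49 in mle and -0.34 to -0.22 in roX mutants.

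Counts of calls moved more, and causes were not tested. TMM on all genes moved the median of all genes by 0.12 in mle, and DESeq2 size factors by -0.12 in msl-1 mutants. With 1 library left out, X-linked genes called lower ran from 0 to 9 in msl-2, 0 to 0 in msl-1, 0 to 13 in mle and 0 to 9 in roX mutants, and autosomal genes called higher in msl-1 from 0 to 9. X-linked calls in 21 libraries with only the groups compared were 4 in msl-2 and 8 in mle, and in mle 1 with DESeq2 or its size factors. In 20 libraries they were, in msl-2, mle and roX in turn, 3, 9 and 4 with TMM on all genes, 3, 12 and 8 with DESeq2, 6, 9 and 2 with at least 1 CPM in 3 libraries, and 4, 8 and 8 with only the groups compared, where msl-1 had 5. Autosomal calls in msl-1 were 2 with DESeq2 size factors, 7 with DESeq2 and 0 with only the groups compared, and in 20 libraries 3 with TMM on all genes, 6 with DESeq2 and 7 with only the groups compared. DESeq2 in 20 libraries called 1 in roX mutants. Members called between heterozygous groups were 2 in 20 libraries.

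Scaled on the autosomal members, leaving out 1 library gave 0 to 1 X-linked calls in msl-2, 0 to 9 in msl-1, 0 to 5 in mle and 0 to 1 in roX mutants. DESeq2 gave 2 in msl-2, 6 in mle and 3 in roX mutants, and no expression filter gave 0 in mle and 3 in msl-1.

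Replicate numbers did not pair the libraries. With the replicate block, X-linked calls in 20 libraries were 2 in msl-2 and 7 in mle, and on the autosomal-member scale, in 21 libraries, 0 in mle and 1 in msl-1. RpS15Ab in msl-1 mutants turned to 0.49 with the block and ran from -0.73 to 0.39 with 1 library left out.

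RpL22 in mle mutants stayed near 0 but turned sign: 0.12 with TMM on all genes, 0.10 with DESeq2 or its size factors, 0.023 with at least 1 CPM, 0.13 with the block and 0.0040 with only the groups compared. In 20 libraries these were 0.082, 0.10, 0.022, 0.17 and 0.0040, and leaving out 1 library gave -0.11 to 0.17.

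Depth limited the weakly expressed paralogs, which had at most 18 counts in any library.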
